A study of Mus musculus with 12 samples.

Results

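Transcripts of 10 secreted liver proteins, *Fgf21*, *Gdf15*, *Igfbp1*, *Angptl4*, *Angptl8*, *Inhbe*, *Fst*, *Fgl1*, *Lect2* and *Ahsg*, were followed in mouse liver after a toxic dose of acetaminophen (APAP). These genes are hepatokines, that is, hormones, binding proteins and inhibitors that the liver releases into the blood, and they were chosen by name among the 45777 genes of the table. Poly-A RNA was sequenced from 12 livers of C57BL/6 mice, with 3 livers in each of 4 groups: WT and *Gna12* knockout (Gα12-/-) mice, given either vehicle or acetaminophen. Mice were 10 to 12 weeks old by their labels, and by the study's methods they were male, with WT littermates as controls, fasted overnight before 1 intraperitoneal dose of 300 mg/kg APAP and sampled 6 h later. Every library came from a separate liver, and whole liver holds hepatocytes together with blood, immune, endothelial and other cells. *Gna12*, the deleted gene, had 1193 to 4373 counts per liver in WT mice and 2472 to 4003 counts in mice labelled KO. The counts therefore did not separate the genotypes, and the second genotype is called the KO label throughout. The study also assayed its WT and knockout mice by PCR of tail DNA, qRT-PCR of liver *Gna12* and immunoblots of Gα12. Whether the sequenced livers were among those assayed is not stated.

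Hepatokines carry news of the liver's state to other organs. FGF21 and GDF15 are hormones of cellular stress: their genes are known targets of the integrated stress response, in which phosphorylation of eIF2α raises translation of ATF4, and ATF4 with its C/EBP partners then drives genes of amino acid supply and stress repair. IGFBP1 binds insulin-like growth factors and falls with insulin, ANGPTL4 and ANGPTL8 restrain lipoprotein lipase, *Inhbe* encodes the subunit of activin E, and follistatin (*Fst*) binds and blocks activins A and B. FGL1 (hepassocin) is a hepatocyte product that also binds the immune receptor LAG3, LECT2 is a circulating chemotactic factor and MET ligand, and AHSG (fetuin-A) is an abundant plasma glycoprotein whose synthesis falls in the acute phase response.

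Promoter stretches are shown for *Fgf21*, *Angptl8* and *Inhbe* because they are the members whose promoter window held the C/EBP-ATF composite core, the motif bound by ATF4 together with a C/EBP protein. The RefSeq table for GRCm38 gave windows from 250 bases before to 50 after the start for 7 of the 10 members, and *Fst*, *Angptl4* and *Fgl1* had none. The core was spelled TGATGNAA, or TTNCATCA on the other strand, and stood in 3 of these 7 members and in 3.97% of all 32851 windows. The members are counted as genes, which had 8 windows among them, whereas the share is of single windows. Each stretch below is written 5′ to 3′ on the strand of its gene and ends before the start, with capitals for matched motifs.
*Fgf21*, chr7:45615511-45615650, minus strand: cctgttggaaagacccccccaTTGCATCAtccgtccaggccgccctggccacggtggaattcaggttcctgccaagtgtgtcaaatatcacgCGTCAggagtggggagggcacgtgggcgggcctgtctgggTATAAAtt
*Angptl8*, chr9:21835350-21835429, plus strand: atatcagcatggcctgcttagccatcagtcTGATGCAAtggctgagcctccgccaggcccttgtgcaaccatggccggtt
*Inhbe*, chr10:127351979-127352058, minus strand: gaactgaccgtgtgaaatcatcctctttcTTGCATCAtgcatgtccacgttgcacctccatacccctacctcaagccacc
The core began 139 bases upstream of the start in *Fgf21*, 130 in *Angptl8* and 181 in *Inhbe*. *Fgf21* also held a cAMP response element half-site (TGACG, or CGTCA on the other strand) 68 bases upstream and a TATA box (TATAAA, or TTTATA on the other strand) 28 bases upstream, motifs found in 20.8% and 13.6% of all windows. The AP-1 site, TGANTCA on both strands, was in none of the members' windows and in 7.81% of all. None of these motifs shares letters with another in the printed stretches. A match of letters is not a measured binding site.

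APAP raised a subset of the hepatokine transcripts, lowered 1 and left the others short of the threshold. In livers labelled KO, *Fgf21*, *Gdf15*, *Igfbp1* and *Angptl8* rose and *Lect2* fell, so that 5 of 10 members passed the test. Among all 15665 genes tested in that comparison, 13% rose and 9.6% fell. In WT livers only *Gdf15* passed, where 1.62% of 15693 genes rose and 0.427% fell. Counts were tested with edgeR's quasi-likelihood method, and p-values were adjusted by Benjamini-Hochberg over all genes of the comparison with a threshold of 0.05. The WT count depended on the tool: it was 4 with the Wald test of DESeq2 and when all 12 livers shared 1 fit, and *Fgf21*, *Gdf15*, *Angptl8* and *Fst* passed in both. Over all genes the WT calls, 255 higher and 67 lower in edgeR, became 877 and 536 of 15693 with the Wald test. They were 968 and 555 of 16509 in the shared fit. Under the KO label the Wald test called 7 members, adding *Fst* (higher) and *Inhbe* (lower). Over all 15665 genes it called 2328 higher and 1997 lower there, against 2034 and 1504 in edgeR. In whole liver, fewer cells of a type and less RNA per cell cannot be told apart.

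The groups were also set side by side without a model. After APAP, 4 members lay above every vehicle liver in WT mice (*Fgf21*, *Gdf15*, *Angptl8* and *Fst*), and none lay below. The WT groups did not overlap, in either direction, for 24.9% of all genes. In livers labelled KO, 5 members lay above every vehicle liver (the same 4 and *Igfbp1*) and *Lect2* lay below, against 42.8% of all genes without overlap. The median log2 fold change of the 10 members was 1.08 in WT livers and 0.79 under the KO label, beside 0.03 and -0.02 over all genes tested. Since the members were chosen with earlier results of these data known, these medians are a description only. The levels below are library-scaled counts (CPM) after TMM scaling over the 12 libraries, listed in the order of livers 1, 2 and 3, and all members passed the filter on low counts in every comparison.

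**Figure D1:**
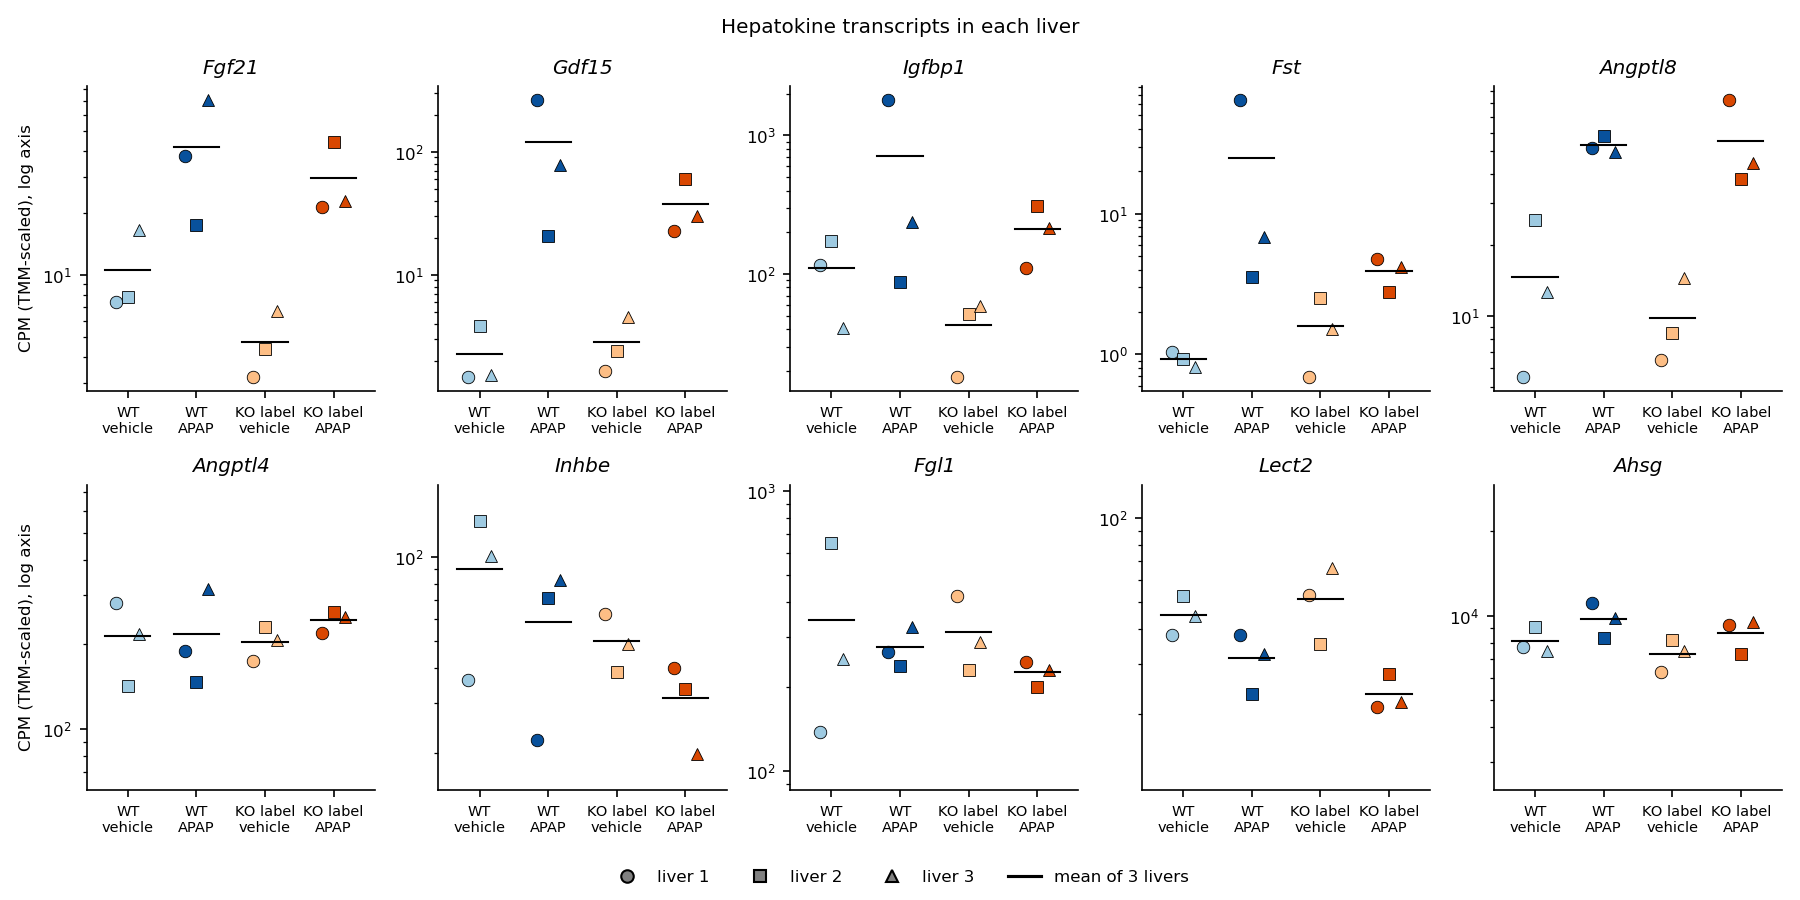
Level of each hepatokine transcript in each of the 12 livers, in CPM after TMM scaling on a log axis, with a panel per gene, a symbol per liver number and a line at the mean of each group of 3. The groups given APAP lie above their vehicle groups for *Fgf21*, *Gdf15*, *Fst* and *Angptl8* in both genotypes, and WT APAP liver 1 is far above the other livers for *Gdf15* (264.6 CPM), *Igfbp1* (1800 CPM) and *Fst* (64.6 CPM).

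*Fgf21*, the fasting and stress hormone that acts through the co-receptor β-Klotho, lies on the minus strand of chromosome 7 (chr7:45613890-45615490, GRCm38) and has 3 exons. Its level was 7.36, 7.78 and 16.4 CPM in WT vehicle livers and 37.7, 17.6 and 70.8 CPM in WT livers given APAP. In livers labelled KO it was 3.19, 4.38 and 6.65 CPM with vehicle and 21.3, 44.5 and 22.8 CPM with APAP. All APAP livers were above the vehicle livers of their genotype, although in WT mice the highest vehicle liver was close to the lowest APAP liver. The log2 fold change was 2.65 ± 0.36 (SE) under the KO label, 6.29-fold, with an edgeR adjusted p of 0.00264. In WT livers it was 2.00 ± 0.53, 4.01-fold, with an edgeR adjusted p of 0.105, and it passed without WT APAP liver 2 (2.35, edgeR adjusted p = 0.0439) and was 1.40 without WT APAP liver 3 (edgeR adjusted p = 0.281).

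*Gdf15*, which encodes the stress hormone that acts on the brainstem through GFRAL, showed the highest fold change of the 10 members in both genotypes. The gene lies on the minus strand at chr8:70629393-70632470 and has 2 exons. WT vehicle livers held 1.47, 3.86 and 1.52 CPM and WT APAP livers 264.6, 20.7 and 77.7 CPM. Livers labelled KO held 1.63, 2.38 and 4.49 CPM with vehicle and 22.6, 59.9 and 29.8 CPM with APAP. The groups were thus far apart in both genotypes, and the WT APAP livers spread over a 12.8-fold range. The log2 fold change was 5.75 ± 0.99 (SE) in WT livers, 53.7-fold (edgeR adjusted p = 0.0347), and 3.75 ± 0.47 under the KO label, 13.4-fold (edgeR adjusted p = 0.00200). The WT call was lost without WT vehicle liver 1 (edgeR adjusted p = 0.153), WT vehicle liver 2 (0.0614), WT vehicle liver 3 (0.144) or WT APAP liver 3 (0.105), and it held without WT APAP liver 1, where the log2 fold change was 4.43 (edgeR adjusted p = 0.0435). It was also lost with limma on log2(TPM + 1) (limma adjusted p = 0.0586).

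*Igfbp1*, the insulin-suppressed binding protein of insulin-like growth factors, rose under the KO label and was spread over a 20.7-fold range among WT APAP livers. It lies on the plus strand at chr11:7197787-7202546 and has 4 exons. WT vehicle livers held 116.1, 173.1 and 41.1 CPM, and WT APAP livers held 1800, 87.0 and 236.9 CPM. Livers labelled KO held 18.1, 51.5 and 59.1 CPM with vehicle and 111.1, 307.1 and 215.0 CPM with APAP. The WT groups overlapped, since WT APAP liver 2 was below 2 of the vehicle livers, whereas the KO-label groups did not. The log2 fold change under the KO label was 2.31 ± 0.48 (SE), 4.96-fold (edgeR adjusted p = 0.0125), and it did not pass in the fit of all 12 livers (edgeR adjusted p = 0.126). In WT livers it was 2.70 ± 1.08 (edgeR adjusted p = 0.244) and 0.56 without WT APAP liver 1.

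*Fst*, the activin antagonist follistatin, was the least abundant member, at 41 counts in its lowest liver. It lies on the minus strand at chr13:114452262-114458989 and has 6 exons. Its level was 1.03, 0.922 and 0.819 CPM in WT vehicle livers and 64.6, 3.53 and 6.87 CPM in WT APAP livers. With the KO label it was 0.689, 2.53 and 1.53 CPM with vehicle and 4.77, 2.78 and 4.16 CPM with APAP. Every APAP liver exceeded the vehicle livers of its genotype, and WT APAP liver 1 was 18.3 times the lowest liver of its group. The log2 fold change was 4.77 ± 1.11 (SE) in WT livers (edgeR adjusted p = 0.0782) and 1.32 ± 0.43 under the KO label (edgeR adjusted p = 0.0590), so neither passed. Without WT APAP liver 1 the WT value was 2.49 (edgeR adjusted p = 0.0320), and it also passed without WT APAP liver 2 (5.26, edgeR adjusted p = 0.0369). The KO-label value passed without KO vehicle liver 2 (1.83, edgeR adjusted p = 0.0369) and with edgeR's newer method (edgeR adjusted p = 0.0489).

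Of the lipase inhibitors, *Angptl8* rose under the KO label and *Angptl4* did not pass edgeR's test in either genotype. *Angptl8*, a feeding-induced gene, lies on the plus strand at chr9:21835510-21837347, has 4 exons and sits inside *Dock6*, which is read from the other strand. WT vehicle livers held 5.48, 25.6 and 12.6 CPM of *Angptl8* and WT APAP livers 51.8, 58.2 and 49.8 CPM. Livers labelled KO held 6.50, 8.47 and 14.4 CPM with vehicle and 82.7, 38.2 and 44.8 CPM with APAP. All 6 APAP livers were above all 6 vehicle livers. The log2 fold change was 2.51 ± 0.37 (SE) under the KO label, 5.69-fold (edgeR adjusted p = 0.00368), and 1.88 ± 0.48 in WT livers, 3.69-fold (edgeR adjusted p = 0.0977). The WT value was called without WT vehicle liver 2, where it was 2.56 (edgeR adjusted p = 0.0378). *Dock6* had 510 to 1090 counts per liver and log2 fold changes of 0.04 in WT livers and -0.26 under the KO label, with edgeR adjusted p-values of 0.951 and 0.208. The strand setting of the authors' counting is not given in the sources used here, so reads of the 2 genes may not be fully separated. Further members overlap genes with few counts: *Lect2* overlaps *Fbxl21* (28 to 98 counts per liver), *Ahsg* overlaps *Gm30505* (65 to 130) and *Fst* overlaps *Gm41074* (0 to 4).

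*Angptl4*, a target of PPARs and of fasting, lies on the minus strand at chr17:33774900-33781575 and has 7 exons. It ranged from 142.0 to 281.5 CPM in WT vehicle livers and from 146.9 to 315.5 CPM in WT APAP livers. Livers labelled KO ranged from 174.1 to 230.1 CPM with vehicle and from 219.2 to 260.5 CPM with APAP. The groups overlapped in both genotypes on this scale, and in TPM the KO-label groups were separate, at 145.4 to 201.5 with vehicle and 226.9 to 250.9 with APAP. The log2 fold changes were 0.03 ± 0.35 (SE) in WT livers and 0.27 ± 0.15 under the KO label, with edgeR adjusted p-values of 0.976 and 0.223. With limma on log2(TPM + 1) the KO-label value passed, at 0.38 (limma adjusted p = 0.0402).

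*Inhbe*, whose product forms activin E, did not pass in either genotype. It lies on the minus strand at chr10:127349402-127351848 and has 2 exons. WT vehicle livers held 36.4, 134.5 and 100.8 CPM and WT APAP livers 22.2, 71.0 and 82.3 CPM. Livers labelled KO held 62.6, 38.8 and 48.9 CPM with vehicle and 40.1, 33.7 and 19.7 CPM with APAP. The groups overlapped in both genotypes, and WT APAP liver 1, the highest liver for *Fst*, was the lowest of its group for *Inhbe*. The log2 fold change was -0.62 ± 0.57 (SE) in WT livers and -0.68 ± 0.27 under the KO label, with edgeR adjusted p-values of 0.605 and 0.110. The WT value was -0.24 without WT APAP liver 1 and -0.23 without WT vehicle liver 2, and the KO-label value was -0.43 without KO APAP liver 3.

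*Lect2*, the chemotactic factor, was the only member that fell in edgeR's test. It lies on the minus strand at chr13:56529734-56548559 and has 4 exons. WT vehicle livers held 38.1, 52.7 and 44.5 CPM and WT APAP livers 38.3, 23.6 and 32.8 CPM. Livers labelled KO held 52.9, 35.6 and 66.2 CPM with vehicle and 21.2, 27.6 and 22.1 CPM with APAP. The KO-label groups were separate, and the WT groups touched at WT APAP liver 1. The level fell by 1.12 ± 0.23 (SE) on the log2 scale under the KO label, 2.17-fold lower (edgeR adjusted p = 0.0112), and the WT log2 fold change was -0.50 ± 0.23 (edgeR adjusted p = 0.297). In TPM, a unit that divides by transcript length and by the total of the library, WT APAP livers ranged from 43.5 to 61.4 and WT vehicle livers from 75.2 to 87.7, so that the WT groups were separate on that scale too.

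*Fgl1* and *Ahsg*, secreted by hepatocytes in the resting liver, did not pass the test in either genotype. *Fgl1* (chr8:41191434-41217978, minus strand, 8 exons) ranged from 137.6 to 653.8 CPM in WT vehicle livers and from 237.2 to 328.0 CPM in WT APAP livers. Its range under the KO label was 230.4 to 420.2 CPM with vehicle and 199.3 to 245.9 CPM with APAP. The vehicle groups were the more variable, with coefficients of variation of 78.0% and 31.0% against 16.7% and 10.5% after APAP. In each vehicle group a single liver stood above the others. WT vehicle liver 2 held 653.8 CPM against 137.6 and 251.7 CPM, and KO vehicle liver 1 held 420.2 CPM against 230.4 and 289.0 CPM. The log2 fold changes of *Fgl1* were -0.32 ± 0.51 (SE) in WT livers and -0.47 ± 0.22 under the KO label, with edgeR adjusted p-values of 0.781 and 0.162. Without WT vehicle liver 2 the WT value of *Fgl1* was above 0, at 0.51 (edgeR adjusted p = 0.427). *Ahsg* (chr16:22892015-22899451, plus strand, 7 exons) ranged from 7472 to 9111 CPM and from 8292 to 11130 CPM in WT livers with vehicle and APAP. With the KO label it ranged from 6276 to 8197 CPM and from 7316 to 9471 CPM. The log2 fold changes of *Ahsg* were 0.27 ± 0.25 (SE) and 0.25 ± 0.20, with edgeR adjusted p-values of 0.600 and 0.387. WT APAP liver 1 was the highest of its group for *Ahsg* in CPM, at 11130, and the lowest in TPM, at 7322.

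**Figure D2:**
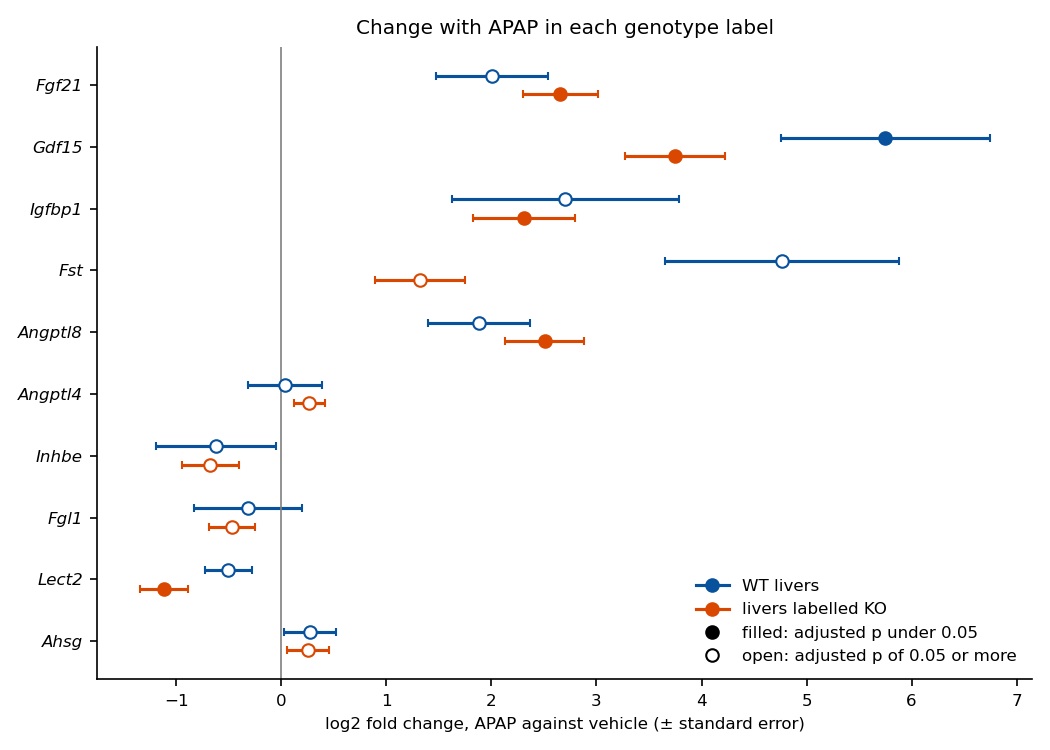
Log2 fold change of each hepatokine transcript in APAP against vehicle livers, with bars of 1 standard error, for WT livers (blue) and livers labelled KO (orange), 3 livers a group. Filled points have an edgeR adjusted p under 0.05: *Gdf15* in WT livers, and *Fgf21*, *Gdf15*, *Igfbp1*, *Angptl8* and *Lect2* under the KO label.

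The library of WT APAP liver 1 stood apart from the others. Its count of *Hba-a1*, an α-globin gene of red cells, was 238212, against 2551 to 7713 in the other 11 livers. The total of counts on genes was 49737950 to 69566079 per liver. Leaving out this liver took the number of members past the threshold in WT mice from 1 to 2, *Gdf15* and *Fst*. Without it the WT log2 fold change was 2.07 for *Fgf21*, 1.89 for *Angptl8*, 0.11 for *Angptl4*, -0.30 for *Fgl1*, -0.68 for *Lect2* and 0.16 for *Ahsg*, and the values of the other members stand with each gene. Without any other single liver the number was 0 to 3, and the plot of values with 1 liver left out shows which genes moved. The part that this liver's red cells or its other markers had in the results was not tested.

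**Figure D3:**
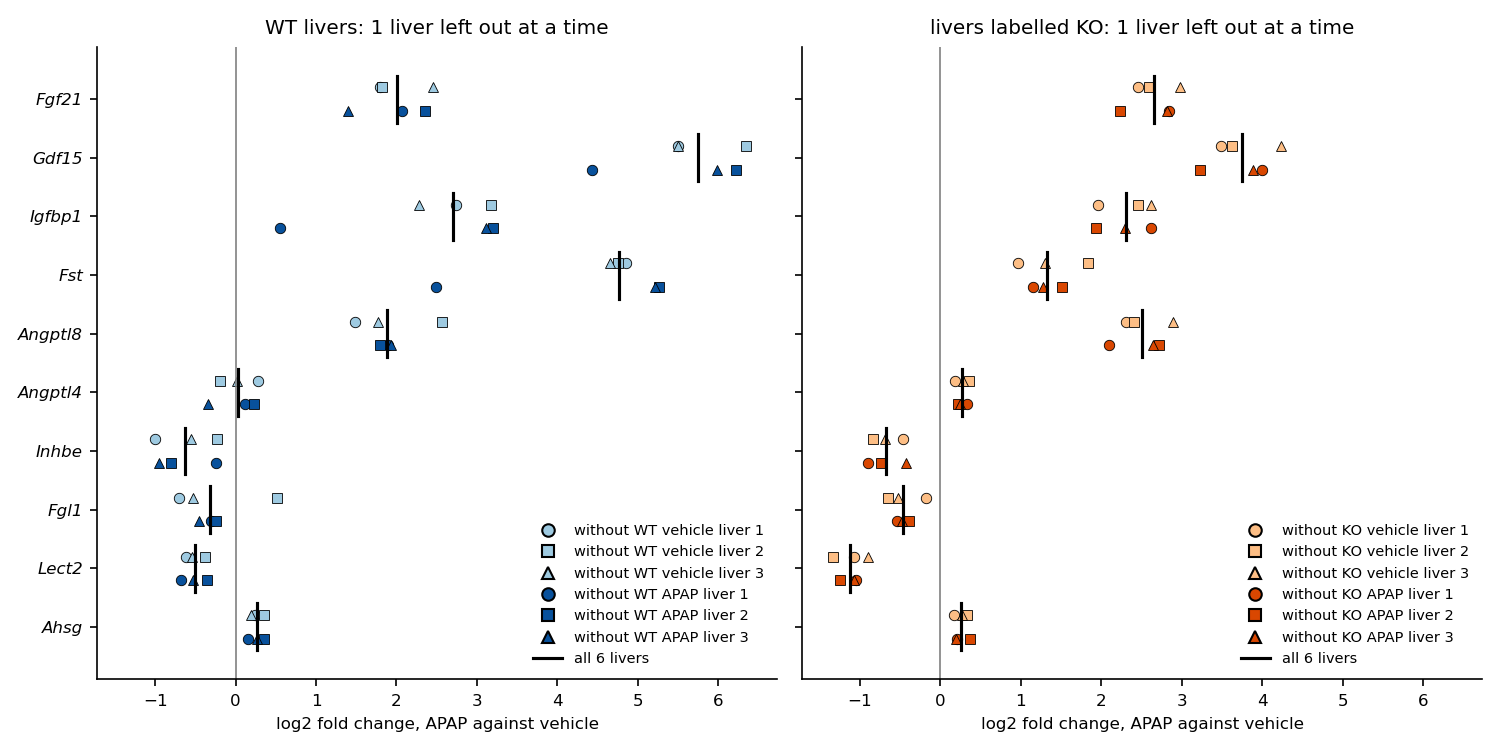
Log2 fold change of each hepatokine transcript in APAP against vehicle livers when 1 of the 6 livers of a comparison is left out (points, by liver), with the value from all 6 livers as a vertical line. In WT mice the points without APAP liver 1 lie far to the left for *Igfbp1* (0.56), *Fst* (2.49) and *Gdf15* (4.43), whereas under the KO label the 4 genes that rose stay at 1.94 or above.

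Markers of other cell types were set beside these values as summed TPM over lists. The neutrophil list (8 genes, of which 2 had counts in every liver and *Camp* had none in any) summed to 0.828 to 39.6 TPM in WT vehicle livers and 25.8 to 234.6 TPM in WT APAP livers. Within the vehicle group the 39.6 TPM was that of WT vehicle liver 2, against 1.32 and 0.828 TPM in the other 2. In CPM this liver was also the highest of its group for *Gdf15*, *Igfbp1*, *Angptl8*, *Inhbe*, *Fgl1*, *Lect2* and *Ahsg*. In livers labelled KO the same list summed to 1.05 to 3.37 TPM with vehicle and 1.32 to 18.5 TPM with APAP. WT APAP liver 1 was the highest of the 12 for neutrophil, cholangiocyte and erythroid markers. All 5 erythroid genes had counts in every liver, and the list summed to 28810 TPM in that liver against 657.2 to 1560 TPM in vehicle livers. Cholangiocyte genes, 5 of 6 with counts in every liver, summed to 12.3 to 15.6 and 19.7 to 34.7 TPM in WT livers with vehicle and APAP, and to 20.6 to 23.1 and 23.6 to 25.6 TPM under the KO label. All 10 hepatocyte genes were found in every liver, with sums of 62530 to 95180 TPM. Kupffer cell, endothelial and stellate lists, with 7 of 7 genes found in every liver, overlapped between vehicle and APAP livers, except that stellate genes summed to 99.7 to 120.4 TPM in WT vehicle livers and to 135.8 to 173.4 TPM in WT APAP livers. Their ranges over all 12 livers were 56.5 to 190.5 TPM for Kupffer cells, 106.3 to 182.5 TPM for endothelial cells and 99.7 to 188.7 TPM for stellate cells. The monocyte list (3 of 5 genes in every liver) stayed at or below 3.59 TPM, the lymphocyte list (5 of 6) at or below 6.32 TPM and the adipocyte list (0 of 4) at or below 1.40 TPM. The part of these cell types in the hepatokine values was not tested.

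The livers were also compared by genotype label, which the *Gna12* counts did not separate, and 0 of the 10 members passed in edgeR or in DESeq2. After APAP, 0.0309% of 16174 genes passed in this comparison. *Fst* had a log2 difference, WT over the KO label, of 2.70 ± 0.99 (SE, edgeR adjusted p = 0.958), and it was the only member with an unadjusted p under 0.05. That difference was 0.41 without WT APAP liver 1. *Gdf15* and *Igfbp1* likewise had log2 differences of 1.72 ± 0.80 and 1.77 ± 0.98, which became 0.39 and -0.38 without that liver. *Fgf21* stood at 0.52 ± 0.49 and *Angptl8* at -0.04 ± 0.29, *Inhbe* at 0.92 ± 0.46, *Lect2* at 0.43 ± 0.22, *Fgl1* at 0.31 ± 0.19, *Ahsg* at 0.18 ± 0.23 and *Angptl4* at -0.15 ± 0.28. The 2 APAP groups overlapped for every member, where 8.73% of all genes did not overlap. The neutrophil sums above also differed between these groups, 25.8 to 234.6 against 1.32 to 18.5 TPM, and their part in the values was not tested.

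With vehicle, 0 members passed in edgeR or in DESeq2 and 0.0262% of 15262 genes did. *Fgf21* was the exception in overlap: all 3 WT vehicle livers (7.36 CPM or more) exceeded the 3 livers labelled KO (6.65 CPM or less), in a comparison where 14.0% of genes did not overlap. Its log2 difference was 1.16 ± 0.38 (SE), with an edgeR adjusted p of 0.588. *Igfbp1* was the other member with an unadjusted p under 0.05, at 1.36 ± 0.57 (edgeR adjusted p = 0.651). The remaining 8 members had log2 differences between -0.77 ± 0.45 for *Fst* and 0.85 ± 0.43 for *Inhbe*.

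The difference between the 2 APAP effects was tested as an interaction over all 12 livers, and 0 members passed in edgeR or in DESeq2. No gene passed in edgeR (0.0% of 16509), whereas DESeq2 called 7 higher and 2 lower. An unadjusted edgeR p under 0.05 was found for 848 genes. A share of about 0.05 of the genes is expected at that cutoff where no gene has an interaction. *Fst* came nearest among the members, with an interaction of 3.44 ± 1.23 (SE) on the log2 scale (edgeR adjusted p = 0.872), which was 1.16 without WT APAP liver 1. *Gdf15* followed at 2.00 ± 1.07 (edgeR adjusted p = 0.872), which was 0.67 without that liver. *Lect2*, which fell under the KO label, had an interaction of 0.61 ± 0.34, *Fgf21* of -0.65 ± 0.70, *Angptl8* of -0.63 ± 0.66 and *Igfbp1* of 0.39 ± 1.26. Calls made in 1 genotype only are therefore not shown to differ between genotypes.

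Levels of the members were ordered on the TPM scale, which allows comparison between genes. In WT vehicle livers *Ahsg* led at 8392 ± 748.2 TPM (SD, n = 3), followed by *Fgl1* (465.6 ± 336.8), *Angptl4* (179.6 ± 73.6), *Igfbp1* (113.1 ± 64.5), *Lect2* (80.1 ± 6.65), *Inhbe* (62.2 ± 30.8), *Angptl8* (25.4 ± 16.3), *Fgf21* (17.3 ± 7.98), *Gdf15* (2.25 ± 1.20) and *Fst* (0.539 ± 0.0950). From *Fgl1* to *Fgf21* each gene overlapped in range with the next, while *Ahsg*, *Gdf15* and *Fst* stood apart from their neighbours. After APAP in WT livers, *Igfbp1* averaged 513.8 ± 580.5 TPM and *Gdf15* 101.2 ± 80.0 TPM, and their places in the order rested on WT APAP liver 1. *Igfbp1* stood at 1179 TPM in that liver and at 106.9 and 255.8 TPM in the others, where *Fgl1* was higher at 391.6 and 479.0 TPM. *Gdf15* stood at 186.0, 27.0 and 90.8 TPM. All neighbours below *Ahsg* overlapped in that group. In livers labelled KO, *Gdf15* was the last but *Fst* with vehicle, at 3.00 ± 1.11 TPM, and with APAP it reached 49.6 ± 25.3 TPM, where it overlapped with *Lect2* and *Inhbe*. *Angptl8* stood at 17.7 ± 3.95 TPM with vehicle and 122.4 ± 57.7 TPM with APAP, and *Fst* remained the lowest of the 10 in all 4 groups.

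Genes related to the hepatokines were taken from 9 lists of known biology. Among 16 tested targets of the integrated stress response, 7 rose and 0 fell in WT livers, and 10 rose and 0 fell under the KO label. The shares over all genes tested were 1.62% higher and 0.427% lower in WT livers, and 13% and 9.6% under the KO label. The median log2 fold change of the 16 targets was 1.43 and 1.45. *Psat1*, an enzyme of serine synthesis, rose by 4.73 ± 0.37 and 4.92 ± 0.47 (SE) on the log2 scale in the 2 genotypes, with edgeR adjusted p-values of 0.00383 and 0.000622. *Ppp1r15a*, which encodes the GADD34 subunit that dephosphorylates eIF2α, rose by 2.69 ± 0.30 and 3.27 ± 0.20 (edgeR adjusted p = 0.00911 and 8.91e-05). *Mthfd2*, of mitochondrial one-carbon metabolism, rose by 3.66 ± 0.48 and 3.88 ± 0.34 (edgeR adjusted p = 0.0148 and 0.000437). The WT count of 7 was 4 without WT APAP liver 1, and 2 without WT vehicle liver 1, WT vehicle liver 3 or WT APAP liver 3.

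Among 23 transcription factors known to act on the members, 4 rose in WT livers and 0 fell, against 1.62% and 0.427% of all genes. Under the KO label 11 rose and 2 fell, against 13% and 9.6% of all genes. The WT count stayed at 4 without WT APAP liver 1 and was 2 without WT vehicle liver 1. *Ddit3* (CHOP, a stress-induced C/EBP protein) went from 7.13 ± 2.15 to 248.8 ± 44.3 CPM (SD, n = 3) in WT livers and from 6.37 ± 0.76 to 171.8 ± 63.7 CPM under the KO label. *Atf3*, a stress-induced bZIP repressor, went from 1.67 ± 1.69 to 589.9 ± 89.4 CPM and from 0.551 ± 0.0911 to 600.2 ± 54.8 CPM. The other 2 called in WT livers were *Egr1*, an immediate-early gene, and *Nr1d1* (REV-ERBα, a clock repressor), with log2 fold changes of 5.90 ± 0.68 and 2.64 ± 0.40. *Atf4* itself, named after its values were seen, rose by 1.58 ± 0.18 under the KO label (edgeR adjusted p = 0.00134). *Ppara*, chosen in the same way, fell by 1.10 ± 0.16 (edgeR adjusted p = 0.00312).

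Of 14 other activin and inhibin family genes, 0 passed edgeR's test in WT livers (7 had an unadjusted p under 0.05, and DESeq2 called 5), and 3 rose and 1 fell under the KO label. Over all genes tested, 1.62% rose and 0.427% fell in WT livers, and 13% rose and 9.6% fell under the KO label. In WT livers, 2817 of all 15693 genes had an unadjusted p under 0.05, and DESeq2 called 877 higher and 536 lower. Under the KO label *Bmp6*, an iron-regulating ligand of endothelial cells, rose by 0.77 ± 0.18 (SE, edgeR adjusted p = 0.0207). *Acvr2b*, an activin type II receptor, fell there by 0.85 ± 0.25 (edgeR adjusted p = 0.0410). In WT livers the log2 fold changes of these 2 genes were 1.03 ± 0.22 and -1.60 ± 0.41 (edgeR adjusted p = 0.0648 and 0.0969). The other 2 called under the KO label, named after their values were seen, were *Inhbb*, the activin B subunit, at 2.39 ± 0.37, and *Smad7*, the inhibitory SMAD, at 1.88 ± 0.14. Of 13 other genes of the IGF system, 0 passed edgeR's test in WT livers (6 at an unadjusted p under 0.05 and 5 by DESeq2) and 3 fell under the KO label, against 9.6% of all genes, with none higher. These were *Igfals*, the acid-labile subunit of the circulating IGF complex, the growth hormone receptor *Ghr* and the insulin receptor *Insr*, with log2 fold changes of -1.23 ± 0.21, -0.89 ± 0.15 and -0.55 ± 0.17. In WT livers the same genes stood at -0.89 ± 0.20, -0.65 ± 0.20 and -0.84 ± 0.19, with edgeR adjusted p-values of 0.0702, 0.145 and 0.0734.

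Of the other angiopoietin-like and lipoprotein lipase genes, 0 of 11 passed edgeR's test in WT livers (2 at an unadjusted p under 0.05 and 1, *Lipg*, by DESeq2), and 3 of 12 fell under the KO label, against 9.6% of all genes, with none higher. In WT livers, 2817 of all 15693 genes had an unadjusted p under 0.05, and DESeq2 called 877 higher and 536 lower. Under the KO label, endothelial lipase (*Lipg*) fell by 2.58 ± 0.29 (SE) on the log2 scale (edgeR adjusted p = 0.00134) and *Angptl2* by 0.80 ± 0.22 (edgeR adjusted p = 0.0314). Their WT log2 fold changes were -2.16 ± 0.75 and -0.30 ± 0.26 (edgeR adjusted p = 0.185 and 0.582). *Lpl*, lipoprotein lipase itself, named after its value was seen, fell by 0.78 ± 0.14 under the KO label (edgeR adjusted p = 0.00747). Of 9 receptors and co-receptors of the members, only *Lag3*, the immune receptor of FGL1, rose, in both genotypes. Among all genes tested, 1.62% rose in WT livers and 13% under the KO label. *Lag3* went from 0.981 ± 0.347 to 7.38 ± 4.08 CPM (SD, n = 3) in WT livers. Under the KO label it went from 0.953 ± 0.522 to 9.94 ± 2.87 CPM. *Klb*, which encodes β-Klotho, stood at 28.1 ± 10.7 and 42.7 ± 4.26 CPM in WT livers with vehicle and APAP (edgeR adjusted p = 0.321), and at 41.1 ± 4.24 and 38.7 ± 10.6 CPM under the KO label (edgeR adjusted p = 0.819).

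Of 21 other secreted hepatokines, 0 passed edgeR's test in WT livers (1, *Igfals*, at an unadjusted p under 0.05 and by DESeq2), and 2 rose and 2 fell under the KO label, against 13% and 9.6% of all genes. In WT livers, 2817 of all 15693 genes had an unadjusted p under 0.05, and DESeq2 called 877 higher and 536 lower. Under the KO label *Selenop*, the selenium carrier of plasma, fell by 0.63 ± 0.18 (SE) on the log2 scale (edgeR adjusted p = 0.0361). Its WT log2 fold change was -0.31 ± 0.24 (edgeR adjusted p = 0.550). *Igfals* was the other that fell under the KO label. *Lcn2* and *Hamp* rose, the former an iron-siderophore binding acute phase protein and the latter the iron hormone hepcidin, both named after their values were seen, at 3.56 ± 0.95 and 1.53 ± 0.37. Of 19 targets of PPARα and of fasting, 0 passed edgeR's test in WT livers (8 at an unadjusted p under 0.05 and 5 by DESeq2), and 5 rose and 3 fell under the KO label, against 13% and 9.6% of all genes. Under the KO label *Pdk4*, the kinase that restrains glucose oxidation, and the lipid droplet protein *Plin2* rose by 2.65 ± 0.17 and 1.90 ± 0.35. *Pck1*, the gluconeogenic enzyme, fell there by 1.34 ± 0.22. In WT livers *Pdk4*, *Plin2* and *Pck1* stood at 1.87 ± 0.44, 1.88 ± 0.49 and -1.27 ± 0.30, with edgeR adjusted p-values of 0.0811, 0.102 and 0.0822. Of 11 feeding and insulin targets, 0 passed edgeR's test in WT livers (3 at an unadjusted p under 0.05 and 2 by DESeq2) and 1 rose and 1 fell under the KO label, against the same shares. Under the KO label the lipogenic malic enzyme *Me1* rose by 0.78 ± 0.17 (edgeR adjusted p = 0.0149). *Acly*, ATP citrate lyase, named after its value was seen, fell there by 0.55 ± 0.14 (edgeR adjusted p = 0.0282). In WT livers *Me1* stood at 0.95 ± 0.21 (edgeR adjusted p = 0.0692). Between WT and the KO label after APAP, 0 genes of any of the 9 lists passed in edgeR or DESeq2, and 3 list entries had an unadjusted p under 0.05. Over all 16174 genes of that comparison, 536 had an unadjusted p under 0.05.

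**Figure D4:**
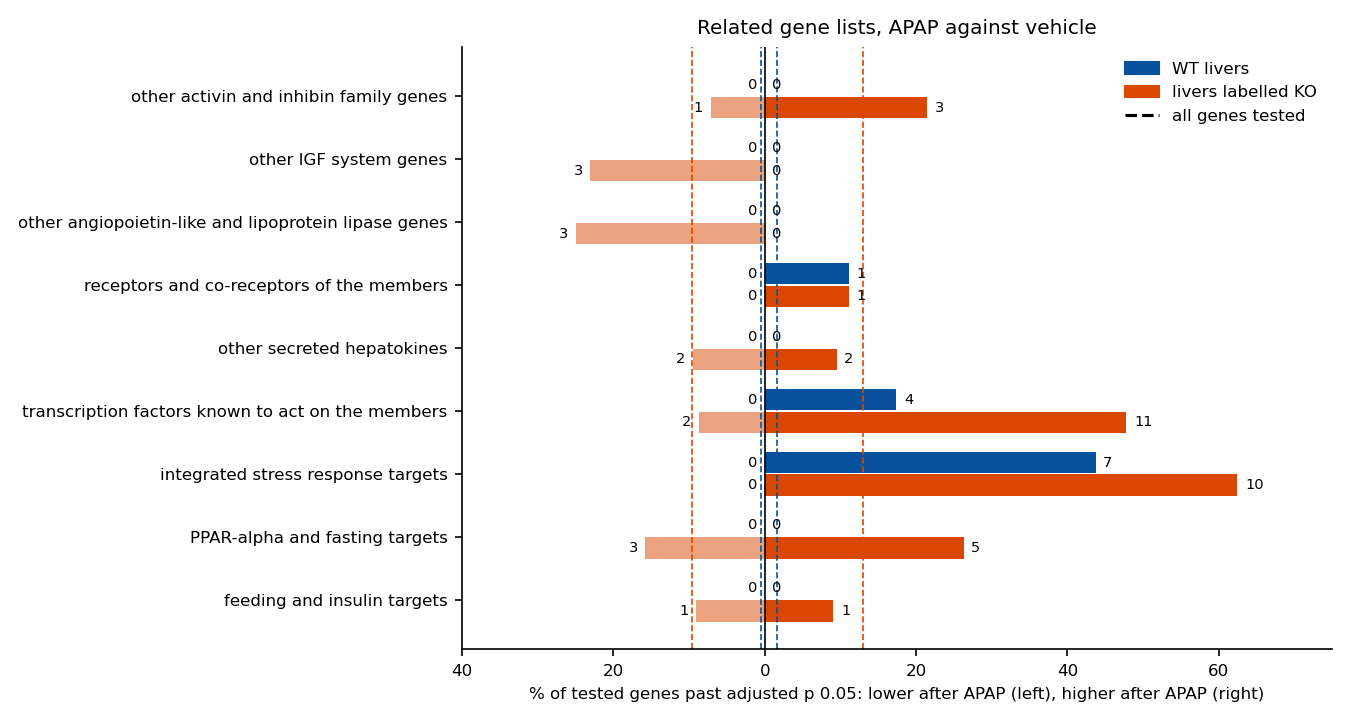
Share of the tested genes of each list, in percent, that were lower (left, pale) or higher (right, solid) after APAP at an edgeR adjusted p under 0.05, for WT livers (blue) and livers labelled KO (orange), with the number of genes at each bar and dashed lines at the share over all genes tested. Targets of the integrated stress response have the longest bars, with 7 of 16 genes higher in WT livers and 10 of 16 under the KO label.

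Genes nearest in pattern were sought for the 5 members whose group means spanned at least 2 on the log2 CPM scale, by the root mean square difference of profiles over the 12 livers, each centred on its own mean, among 10911 genes. *Fgf21* was nearest to *Btg1*, an antiproliferative gene (0.53, against a median of 1.36 over all candidates), and then to *Gpat3*. *Igfbp1* was nearest to *Thbd* (thrombomodulin, 0.70 against 1.66) and then to *Tiparp*. *Angptl8* was nearest to *Srrm4* (0.46 against 1.33) and then to *Id1*, and *Fst* to *Adamts1* (0.77 against 1.75) and then to *Ctla2a*. These 4 members had different nearest genes, but with only 2 named among 10911 this does not show that their patterns differ. The highest APAP liver also varied between members, although the WT APAP livers were close together for *Angptl8* (51.8, 58.2 and 49.8 CPM). In WT mice the highest was liver 1 for *Gdf15*, *Igfbp1* and *Fst*, liver 3 for *Fgf21* and liver 2 for *Angptl8*. Under the KO label it was liver 2 for *Fgf21*, *Gdf15* and *Igfbp1* and liver 1 for *Fst* and *Angptl8*.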

How the data were processed

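Liver RNA libraries (TruSeq Stranded mRNA, Illumina NovaSeq) of 12 mice were analysed from the table of 45777 genes that the authors deposited. The authors deposited raw whole-number read counts, which entered the tests. Their deposited TPM values, normalized to transcript length and to a fixed total, served to compare levels between genes. Their deposited FPKM values were not used. The submitters' processing notes name FastQC 0.11.7, Trimmomatic 0.38, HISAT2 2.1.0, Bowtie2 2.3.4.1, StringTie 2.1.3b and mm10 (GRCm38), without their roles. Livers were grouped by their labels.

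Counts were scaled by TMM, filtered with filterByExpr and fitted in R 4.3.3 by edgeR 4.0.16 (quasi-likelihood, glmQLFTest with default settings) on the 6 livers of each comparison, or on all 12 for the interaction, adjusting p-values by Benjamini-Hochberg across every gene of a fit. The standard errors (SE) given for edgeR were derived from its test, as the absolute log2 fold change divided by the square root of the F statistic. Depth was 49737950 to 69566079 counts per liver. Members, lists and markers were chosen with earlier results of these data known. Beside the members, at most 4 genes of each list with the smallest p in WT livers were to be named, and others are marked. Medians of the lists were the same with a group at 0 in every liver set to a floor of 3 counts per library. Gene positions and promoters came from RefSeq tables of GRCm38. Strands and exon numbers (of the first listed transcript) came from GENCODE. Alternatives were the DESeq2 1.42.0 Wald test, its size factors in edgeR, no filter, a minimum of 10 counts in each liver, all 12 livers in 1 fit, the replicate block, edgeR's newer quasi-likelihood method, each liver left out, and limma 3.58.1 on log2(TPM + 1) or, with a smaller constant, log2(TPM + 0.1), after quantile normalization. The scripts were tested on simulated data. The genes nearest in pattern to *Gdf15* are not reported here.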

Additional observations from a re-analysis of the deposited data

How the results depend on the processing

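The number of members past the threshold in WT livers (1) was 4 with the Wald test of DESeq2 and with all 12 livers in 1 fit, 0 with limma on log2(TPM + 1), and 0 to 3 with 1 liver left out. It was 0 without WT vehicle liver 1, WT vehicle liver 3 or WT APAP liver 3, 2 without WT APAP liver 1 and 3 without WT APAP liver 2. Without WT vehicle liver 2 it was 1, *Angptl8* in place of *Gdf15*. Under the KO label the number (5) stayed between 4 and 7, and the genotype and interaction counts stayed at 0 in every alternative run. With the replicate block the WT count was 0 (edgeR adjusted p = 0.145 for *Gdf15*) and the KO-label count 5. The labels give the livers numbers only: of 18 pairs with the same number, 1 had deviations correlated above 0.1 (range -0.264 to 0.107), and 4 correlated best with their own number. The cause of these changes was not tested. Over all genes, 255 higher and 67 lower in WT livers became 877 and 536 with DESeq2, 968 and 555 in the fit of 12 livers and 61 and 1 with the replicate block, and were 41 to 316 and 0 to 126 with 1 liver left out. Under the KO label 2034 and 1504 became 2328 and 1997 with DESeq2 and 1405 and 844 in the fit of 12 livers. They were 1261 to 1967 and 734 to 1401 with 1 liver left out. Between genotypes, DESeq2 called 21 and 8 genes after APAP and 62 and 75 with vehicle, against 2 and 3, and 2 and 2. Of the integrated stress response targets higher in WT livers (7), 1 passed with the replicate block and 3 with limma on log2(TPM + 1).

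None of the members' log2 fold changes that were past the threshold reversed, and 46 of 800 alternative values of members changed sign, none of them past it. With 1 liver left out, the log2 fold change in WT livers ranged from -0.34 to 0.28 for *Angptl4* and from -0.70 to 0.51 for *Fgl1*. The difference of WT over the KO label after APAP ranged from -0.0707 to 0.94 for *Fgf21*, -0.38 to 2.29 for *Igfbp1*, -0.51 to 0.0618 for *Angptl4* and -0.25 to 0.38 for *Angptl8*. With vehicle it ranged from -0.93 to 0.19 for *Gdf15*, -0.18 to 0.28 for *Angptl4*, -0.12 to 0.97 for *Angptl8*, -0.69 to 0.53 for *Fgl1* and -0.40 to 0.0275 for *Lect2*. The interaction ranged from -1.77 to 0.93 for *Igfbp1*, -0.61 to 0.0219 for *Angptl4*, -1.01 to 0.0609 for *Angptl8*, -0.32 to 0.46 for *Inhbe*, -0.22 to 0.99 for *Fgl1* and -0.11 to 0.13 for *Ahsg*. Limma on log2(TPM + 1) and on log2(TPM + 0.1) gave -0.0426 and -0.0428 for *Angptl4* in WT livers, -0.34 and -0.34 for *Ahsg* between genotypes after APAP, -0.0131 and -0.0136 for *Angptl4* and -0.17 and -0.17 for *Fgl1* between genotypes with vehicle, and interactions of -0.65 and -0.67 for *Igfbp1* and -0.35 and -0.35 for *Ahsg*. The replicate block gave 0.0444 for *Angptl8* after APAP and -0.11 for *Fgl1* with vehicle.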
